A study of Mus musculus with 6 samples.

Results

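The genes described here are 35 genes of auricular cartilage, the elastic cartilage that carries the outer ear, in RNA of mouse ear skin. They were selected by gene symbol from a list of chondrocyte transcription factors, cartilage collagens, proteoglycans, matrix adaptors and small secreted proteins. The rule itself uses no measured value, but the genes were chosen with earlier results of these data known. Of the 35 genes, 33 were found among the 18404 genes measured, and 23 of those had enough reads to be tested. Ucma and Nkx3-2 were not analysed here.

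The samples were 6 poly(A)-selected RNA libraries of whole ear skin taken at postnatal day 3, 3 from mice labelled control and 3 from mice labelled ecko, an endothelial-specific knockout of Kdr, which encodes the VEGF receptor VEGFR2. All pups, controls included, had received tamoxifen from postnatal day 1 at 60 µg per day, and the series carries 48 h in its name. The design text calls the controls littermates. It names neither their alleles nor the Cre driver, and the strain and the sex of the mice are not given in the sources used here. Since nothing states that the replicates came from separate animals or litters, p-values measure only the spread between these samples.

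Cartilage is made by chondrocytes, which hold fibrils of type II, IX and XI collagen and a gel of aggrecan bound to hyaluronan. SOX9 switches on most of these genes, with SOX5 and SOX6 as its partners. The plate of the outer ear is a cartilage of this kind with elastic fibres added, it has no blood vessels of its own, and it is wrapped in a fibrous perichondrium beneath the skin. Several of the genes are also used outside cartilage: Sox9 and Trps1 are known from hair follicles, and Cilp and Fmod from fibrous connective tissue.

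The libraries held 16987130 to 17979182 expected counts, the read counts per gene that the authors deposited. Kdr, the targeted gene, had 1599, 1860 and 1337 counts in control and 348, 431 and 370 in ecko libraries. All ecko libraries lay below all controls, with a log2 fold change of -2.05 ± 0.12 (SE, n = 3 and 3, edgeR adjusted p = 0.0002). Control 2 and ecko 3 stood apart from the other libraries: the Y-linked gene Ddx3y had 4 and 6 counts there and 1445 to 1641 counts in the others.

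The 2 collagen genes that differed most between libraries, Col9a1 and Col9a2, are shown with the DNA upstream of their start sites. They encode chains of type IX collagen, which coats the type II fibril. Sequences are from RefSeq (GRCm38.p6), read 5′ to 3′ on the gene's strand, in the 250 bases before a transcript start, shortened to leave out exons annotated by GENCODE and, at the first start of a gene, bases inside its RefSeq span. They were searched on both strands for ACAAAG and ACAATG, short forms of the SOX motif, and a match would stand in capitals. Col9a1 has 2 starts 17593 bases apart, the first behind chr1:24177360-24177588 (plus strand), the second behind chr1:24194953-24195186 (plus strand). The Col9a2 stretch is chr4:121039316-121039384 (plus strand).
Col9a1 first start: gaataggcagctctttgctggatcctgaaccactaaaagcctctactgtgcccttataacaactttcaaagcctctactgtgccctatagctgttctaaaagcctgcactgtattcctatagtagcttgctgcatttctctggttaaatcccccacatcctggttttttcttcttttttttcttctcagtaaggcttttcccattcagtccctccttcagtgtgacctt
Col9a1 second start: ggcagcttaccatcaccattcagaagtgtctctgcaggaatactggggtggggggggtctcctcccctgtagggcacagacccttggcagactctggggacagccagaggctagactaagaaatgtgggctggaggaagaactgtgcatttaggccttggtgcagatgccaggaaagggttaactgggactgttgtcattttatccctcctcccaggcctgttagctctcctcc
Col9a2: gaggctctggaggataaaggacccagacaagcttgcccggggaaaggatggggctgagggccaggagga
No match was present in these stretches. Over the full 250 bases before each start, 9 of 37 windows of the listed genes held a match (24.3%), beside 25.2% of all 32851 windows in the same table. The 4 genes with a match were Chadl, Epyc, Sox5 and Sox6, of 27 with a window. Sox6 alone had 6 of the 37 windows, with 10 matches, so the share by window leans on that gene. The share of all genes with a match was not counted. A match is a string of letters, and binding was not measured.

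Col2a1, Matn1 and Matn3 were near the lower limit of detection in this ear skin, while Sox9, Acan and several genes that cartilage shares with other tissues were well detected. The 33 measured genes together took 0.0649% to 0.0674% of all counts in a library. Trps1, Matn2, Cilp, Col11a1, Sox9 and Col27a1 alone held 74.4% to 76.7% of that. By mean level in counts per 1000000 (CPM, with library totals scaled by edgeR's TMM method), 13 genes lay at 10 CPM or more, 8 between 1 and 10 CPM, and 12 under 1 CPM. In bulk RNA, fewer cells of a type and less RNA per cell cannot be told apart.

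Col2a1 (gene ID 12824, chr15:97975602-98004724), the fibril collagen of cartilage and its most abundant protein, had 15, 21 and 15 counts in control and 15, 11 and 21 in ecko libraries. Per length of exon its level was 0.100 CPM per kb. Col1a1, the type I collagen of dermis, stood at 1330 CPM per kb, 13289 times higher. The lowest count lay in ecko 2 and the highest in control 2 and ecko 3, so the groups overlapped. The 95% Poisson intervals of 11 counts (5.49 to 19.7) and of 21 counts (13.0 to 32.1) overlapped; these intervals cover counting error only.

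By count, further genes known from cartilage were lower still. Matn1, the first matrilin described in cartilage, had 1 count over all 6 libraries, in control 3, and Matn3, a matrilin of growth cartilage, had 1 count in control 2 and 2 in ecko 2. Snorc, a small chondrocyte proteoglycan, had 1, 4 and 0 counts in control and 0, 0 and 3 in ecko libraries. Barx1, a homeobox factor of craniofacial mesenchyme, had 0 counts in every library, which allows a level of up to 0.166 to 0.175 CPM (3 counts). The label of cartilage was thus not borne out by Col2a1, Matn1 and Matn3, but other chondrocyte genes differed from them. Sox9 and Acan were well detected, and Col9a1 (12 to 64 counts), Hapln1 (23 to 35) and Cnmd (2 to 13) were present at low levels. The list is called the cartilage genes below only by its rule.

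Sox9 and Acan, the other defining genes, were detected at higher levels. Sox9 (20682, chr11:112782210-112787757), the master factor of chondrocytes, had 1222, 1283 and 835 counts in control and 1309, 1103 and 1174 in ecko libraries, or 15.8 CPM per kb. Acan (11595, chr7:79053226-79115099), the large aggregating proteoglycan, had 280, 278 and 327 counts in control and 282, 283 and 256 in ecko libraries, or 2.15 CPM per kb. Thus Acan lay 21.5 times above Col2a1 per length, and Cilp, the highest member per length with 20.1 CPM per kb, lay below elastin (Eln, 131 CPM per kb), the core of elastic fibres.

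**Figure D1:**
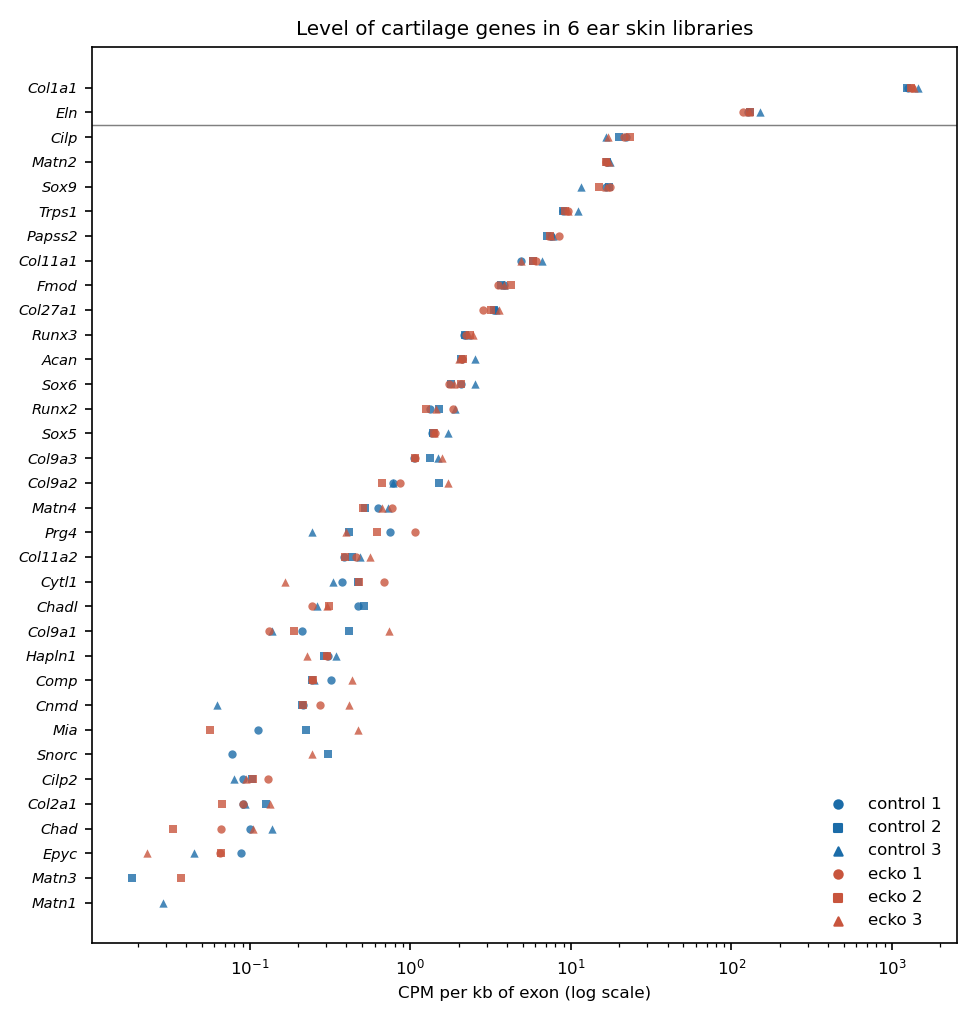
Level of each cartilage gene with a count above 0, with Eln and Col1a1 above the line, in CPM per kb of exon on a log axis; blue points are controls and red points ecko libraries, and libraries with 0 counts are not drawn. Col2a1 sits near 0.100 CPM per kb and Col1a1 near 1330, while blue and red points of a gene lie mixed.

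Between ecko and control, no cartilage gene passed the test. Of the 23 tested genes, 0 passed an adjusted p under 0.05 in edgeR's quasi-likelihood test, and over all 14920 genes 0.0067% passed, which is Kdr alone. At an unadjusted p under 0.05, 0 of 23 passed beside 9.01% of all genes, and DESeq2 also called 0 of the 23. Control and ecko values overlapped for all 23, whereas 15.7% of all genes had groups that did not overlap. The mean was higher in ecko for 11 and lower for 12, and the median log2 fold change was -0.02, beside -0.002 over all tested genes. For 20 of the 23 genes the log2 fold change lay within 0.2 of 0, and adjusted p-values ran from 0.593 to 0.959.

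**Figure D2:**
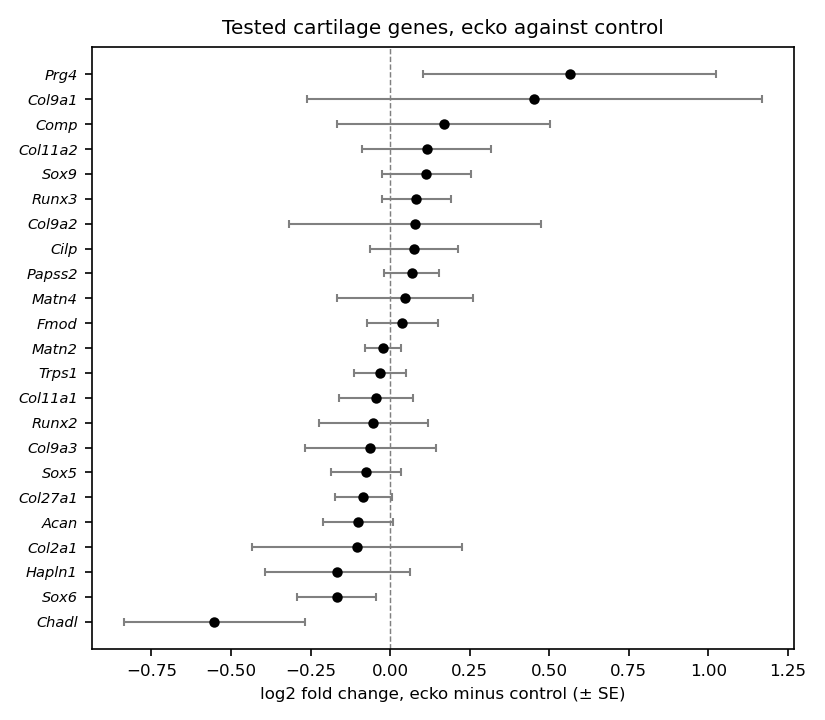
Log2 fold change, ecko minus control, of the 23 tested cartilage genes (points, bars ± SE derived from the edgeR test, n = 3 and 3). Values run from -0.55 for Chadl to 0.57 for Prg4, and 20 of 23 lie within 0.2 of the dashed line at 0.

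Among the transcription factors, none of the SOX trio passed. Sox9 was 62.6 ± 12.6 CPM in controls and 67.8 ± 5.55 CPM in ecko (SD, n = 3 and 3), a log2 fold change of 0.11 ± 0.14 (SE, edgeR adjusted p = 0.828). Control 3 was the lowest library for Sox9 and the other control libraries lay inside the ecko range. Beside it, Shh, a signal made by the hair follicle, was also lowest in control 3, with 692 counts against 914 to 1031 in the others, and so were the hair follicle factors Sox21 (1004 counts in control 3) and Hoxc13 (545). Control 3 was lowest for 4 of 18 hair follicle genes, beside 29.3% of all tested genes. Of the same list, Krt17 (14530 counts in control 3, 12171 to 14841 over the libraries), Tchh (17939, 15261 to 24292) and Cux1 (4673, 4294 to 5077) were not lowest there. The summed level of 18 hair follicle genes was 5591 CPM in control 3 and 4636 to 6274 CPM over the libraries, and the part of hair follicles in the Sox9 level was not tested.

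Sox5 (20678), which encodes a partner of SOX9 without an activation domain of its own, had 350, 358 and 429 counts in control and 368, 359 and 347 in ecko libraries. Control 3 was highest and the other 5 libraries lay close together; the log2 fold change was -0.08 ± 0.11 (edgeR adjusted p = 0.849). Sox6 (20679), its close relative, had 549, 483 and 647 counts in control and 467, 550 and 472 in ecko libraries, again with control 3 highest. Its log2 fold change was -0.17 ± 0.12 (edgeR adjusted p = 0.694). Sox5 shares 9.25% of its exon bases with the antisense gene Sox5os1. Reads within the shared bases cannot be told apart because the strand setting of the counting is not given in the sources used here.

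Trps1, a GATA-type repressor of both growth cartilage and hair follicles, was the most abundant cartilage gene by CPM, with 127.5 CPM over all libraries. Its log2 fold change was -0.03 (edgeR adjusted p = 0.917). Runx2, the factor of hypertrophic chondrocytes and osteoblasts, ranged from 198 to 294 counts, with both ends of that range in the ecko libraries. Runx3, which acts in chondrocyte maturation and in immune cells, had 191, 199 and 199 counts in control and 200, 210 and 210 in ecko libraries. The Runx3 counts of the ecko libraries were all above the controls, but the depth-scaled CPM overlapped, and the log2 fold change of 0.08 ± 0.11 did not pass (edgeR adjusted p = 0.834).

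Among the cartilage collagens, the type IX chains Col9a1 and Col9a2 had the widest ranges over libraries. Col9a1 (12839, chr1:24177589-24252738) had 19, 38 and 12 counts in control and 12, 17 and 64 in ecko libraries. Col9a2 (12840, chr4:121039566-121055325) had 43, 84 and 42 counts in control and 48, 37 and 91 in ecko libraries. Control 2 and ecko 3 were highest for both genes, the same libraries that had few Y-linked reads, and they belong to opposite genotypes.

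For Col9a1 the 95% Poisson interval was 49.3 to 81.7 counts in ecko 3 and 26.9 to 52.2 in control 2, and that of the next library, control 1, was 11.4 to 29.7. For Col9a2 the intervals of control 2 (67.0 to 104) and ecko 3 (73.3 to 112) lay above those of the other 4 libraries, the highest of which ended at 63.6. In these 2 of the 23 tested genes, both libraries lay at least 1.5 times above each of the others, a pattern noticed in the data and met by 22 genes or 0.147% of all tested genes. Col2a1 shared only the order: its 2 highest libraries were also control 2 and ecko 3, with 21 counts each. In all, 3 of the 23 tested genes had this top pair, beside 6.66% of all tested genes. Of the untested genes, Mia (4 and 8 counts) and Snorc (4 and 3) were highest in the same pair, at counts too low to weigh. The other untested genes did not have this top pair. In control 2 and ecko 3, Chad had 0 and 3 counts, Epyc 0 and 1, Cytl1 9 and 3, Cilp2 8 and 7, and Cnmd 7 and 13.

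Genes of luminal and other simple epithelia moved with these libraries. Krt18, a keratin of simple epithelium, had 109, 305 and 19 counts in control and 59, 74 and 408 in ecko libraries. Csn3, the milk protein kappa-casein, had 43, 130 and 0 counts in control and 10, 31 and 168 in ecko libraries. Krt8, Krt19 and Foxa1 had the same 2 libraries on top. So did 15 of the 18 genes of a luminal epithelium list, beside 6.66% of all tested genes. That list was drawn up after these values were seen, so its match to the pair is not a test. The libraries were ranked alike by Col9a1 and Krt18 down to the fourth, below which Col9a1 had 12 counts in both of its lowest libraries. Col9a2 shared only the top pair with Krt18. Below it, Col9a2 had ecko 1 next and ecko 2 lowest by CPM, and Krt18 had control 1 next and control 3 lowest. The summed CPM of the 18 genes was 303, 392 and 280 in control and 313, 293 and 432 in ecko libraries, and the part of such cells in the Col9a1 and Col9a2 values was not tested.

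Between genotypes, Col9a1 was 1.29 ± 0.731 CPM in controls and 1.79 ± 1.70 CPM in ecko (SD, n = 3 and 3), with a log2 fold change of 0.45 ± 0.71 (SE, edgeR adjusted p = 0.870). This value turned to -0.67 without ecko 3, rose to 1.00 without control 2, and was -0.12 without both. Col9a2 was 3.16 ± 1.29 CPM in controls and 3.36 ± 1.73 CPM in ecko, and its log2 fold change of 0.08 ± 0.40 (edgeR adjusted p = 0.959) was -0.03 without both libraries.

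**Figure D3:**
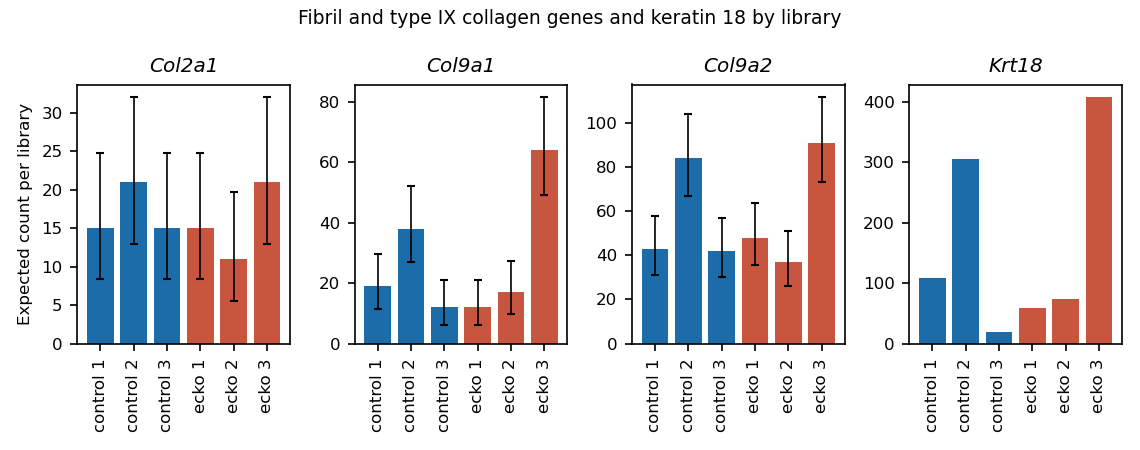
Expected counts per library of Col2a1, Col9a1, Col9a2 and Krt18 (blue bars controls, red bars ecko; bars of the 3 collagens carry 95% Poisson intervals). Col9a1, Col9a2 and Krt18 peak in control 2 and ecko 3, at 38 and 64, 84 and 91, and 305 and 408 counts.

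The fibril collagens with wider use were steadier. Col11a1 (12814), a chain of type XI collagen and the highest cartilage collagen per length at 5.67 CPM per kb, had 1109, 1340 and 1455 counts in control and 1389, 1318 and 1066 in ecko libraries. The groups overlapped, and the log2 fold change was -0.04 ± 0.12 (edgeR adjusted p = 0.919). Col27a1 (373864), a fibril collagen of cartilage and some epithelia, had 783, 780 and 773 counts in control and 659, 738 and 791 in ecko libraries. The controls lay close together inside the wider ecko range, with a log2 fold change of -0.08 ± 0.09 (edgeR adjusted p = 0.793). Col9a3 and Col11a2, the third type IX chain and the second type XI chain, had 72.3 to 103 and 47 to 66 counts per library. Both were highest in ecko 3 by CPM. Col9a3 did not share the top pair of Col9a1 and Col9a2: control 3 (5.71 CPM) lay above control 2 (5.09 CPM).

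Aggrecan and its partners did not pass either. Acan was 16.7 ± 1.91 CPM in controls and 15.5 ± 0.473 CPM in ecko, a log2 fold change of -0.10 ± 0.11 (edgeR adjusted p = 0.793). Hapln1, the link protein that locks aggrecan to hyaluronan, had 32, 31 and 35 counts in control and 32, 32 and 23 in ecko libraries. Papss2 (23972), which makes the sulfate donor for proteoglycans, had 496, 475 and 497 counts in control and 562, 492 and 478 in ecko libraries. Only ecko 1 lay above the controls by CPM, and the log2 fold change of Papss2 was 0.07 ± 0.09 (edgeR adjusted p = 0.828).

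Prg4 (96875, chr1:150449412-150466221), which encodes the joint lubricant lubricin and is also made in tendon, had the highest log2 fold change of the list. It had 57, 32 and 18 counts in control and 82, 47 and 29 in ecko libraries. The groups overlapped in the middle of that range: control 1 lay above ecko 2 and ecko 3. Prg4 was 2.00 ± 1.10 CPM in controls and 2.96 ± 1.46 CPM in ecko, a log2 fold change of 0.57 ± 0.46 (edgeR adjusted p = 0.726). With single libraries left out it ran from 0.11 (without ecko 1) to 1.07 (without control 1).

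Among the matrix adaptors, Cilp (214425, chr9:65265180-65280614), a secreted protein of the cartilage intermediate layer and of fibrous tissue, had 1668, 1540 and 1222 counts in control and 1645, 1770 and 1230 in ecko libraries. Control 3 and ecko 3 were lowest, 1 in each group, and the log2 fold change was 0.08 ± 0.14 (edgeR adjusted p = 0.885). The same 2 libraries were lowest for Prg4 and for the summed CPM of 26 skeletal muscle genes, which was 13872, 11603 and 7794 in control and 13252, 11776 and 10721 in ecko libraries. Ranked by muscle level and by Prg4, the libraries came in one order apart from the top pair, control 1 and ecko 1, which changed places. By Cilp, ecko 2 came ahead of control 1 and ecko 1, whereas by muscle level it came after them. Control 3 was the lowest library for 29.3% of all tested genes. The part of muscle in Prg4 and Cilp was not tested.

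**Figure D4:**
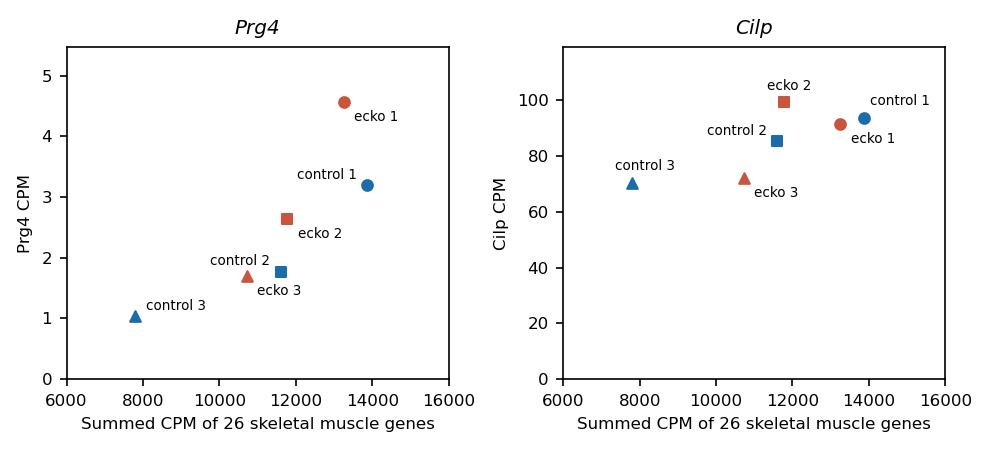
Prg4 (left) and Cilp (right) in CPM against the summed CPM of 26 skeletal muscle genes, 1 point per library (blue controls, red ecko). Control 3 and ecko 3 are lowest on every axis, at 7794 and 10721 summed muscle CPM; the horizontal axis starts above 0.

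Chadl (214685, chr15:81686166-81697373), which encodes a leucine-rich protein that binds fibrillar collagen, had the lowest log2 fold change of the list, with 44.0, 49 and 24 counts in control and 23, 29.3 and 27 in ecko libraries. Controls 1 and 2 lay above every ecko library, and control 3 lay within the ecko range. Chadl was 2.19 ± 0.708 CPM in controls and 1.495 ± 0.188 CPM in ecko, a log2 fold change of -0.55 ± 0.28 (edgeR adjusted p = 0.593). Chadl shares 19.5% of its exon bases with L3mbtl2 on the opposite strand, and reads within the shared bases cannot be told apart.

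Matn2, the matrilin of skin and connective tissue, was the steadiest of the cartilage genes, at 1837 to 1899 counts in all 6 libraries. Comp, a pentameric adaptor of cartilage and tendon, stood far lower at 13 to 22 counts, with the highest in ecko 3. Fmod, a collagen-binding proteoglycan, ranged from 210 to 249 counts, and Matn4 from 47 to 71, each with overlapping groups. Chad, a leucine-rich cell-binding protein, had 3, 0 and 4 counts in control and 2, 1 and 3 in ecko libraries. Epyc, a small proteoglycan of growth cartilage that shares 40.6% of its exon bases with Gm10754 on the opposite strand, had 4, 0 and 2 against 3, 3 and 1, and Cilp2, the relative of Cilp, had 7, 8 and 6 against 10, 8 and 7. These 3 genes were too low to be tested.

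The small secreted proteins were all too low to be tested. Cnmd, or chondromodulin, which inhibits blood vessel growth in cartilage, had 7, 7 and 2 counts in control and 9, 7 and 13 in ecko libraries. Cytl1, a chondrocyte cytokine-like protein, had 7, 9 and 6 against 13, 9 and 3. Mia, a protein secreted by chondrocytes and melanoma cells, had 2, 4 and 0 against 0, 1 and 8. It shares 41.2% of its exon bases with Gm21983 on the same strand, so its few reads are uncertain. Cnmd and Mia were highest in ecko 3 and Cytl1 was lowest there, and for all 3 the groups overlapped.

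Taken library by library, the summed level of the 33 measured genes was 647, 650 and 677 CPM in the controls and 668, 655 and 645 CPM in the ecko libraries. The ends of that range were control 3, the highest, and ecko 3, the lowest. This order depended on the summary: by the geometric mean of the genes, control 3 was lowest and ecko 3 highest. Control 3 was the highest library for 8 of 23 tested genes (34.8%), beside 27.5% of all tested genes. They were Sox5, Sox6, Trps1, Runx2, Acan, Hapln1, Col11a1 and Matn2. Ecko 3 was also highest for 8 of 23 (34.8%), beside 12.0% of all genes: 6 of the 7 collagens (Col2a1, Col9a1, Col9a2, Col9a3, Col11a2 and Col27a1), Comp and Runx3. A rank ignores the margin, which was small for some. Col27a1 had 46.3 CPM in ecko 3 and 44.6 in control 3, Col9a3 had 6.02 and 5.71, and Col2a1 had 21 counts in both ecko 3 and control 2. Col9a1 had 3.74 CPM in ecko 3 and 2.10 in control 2.

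A summed level of 7 chondrocyte markers (Sox9, Col2a1, Acan, Col9a1, Matn1, Hapln1 and Cnmd) was 88.5, 91.8 and 70.7 CPM in the controls and 92.3, 81.5 and 90.7 CPM in the ecko libraries, with control 3 lowest. Sox9 carried most of it. Without Sox9 the other 6 summed to 19.8, 20.8 and 22.6 CPM in the controls and 19.5, 19.6 and 22.1 CPM in the ecko libraries, with control 3 highest. The sum of Col2a1, Col9a1, Col9a2, Col9a3, Matn1 and Hapln1, chosen after their values were seen, was 10.2, 14.7 and 11.8 CPM in control and 10.1, 9.53 and 17.7 CPM in ecko libraries, with ecko 3 and control 2 highest. These sums did not rank the libraries by cartilage content in a single order.

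**Figure D5:**
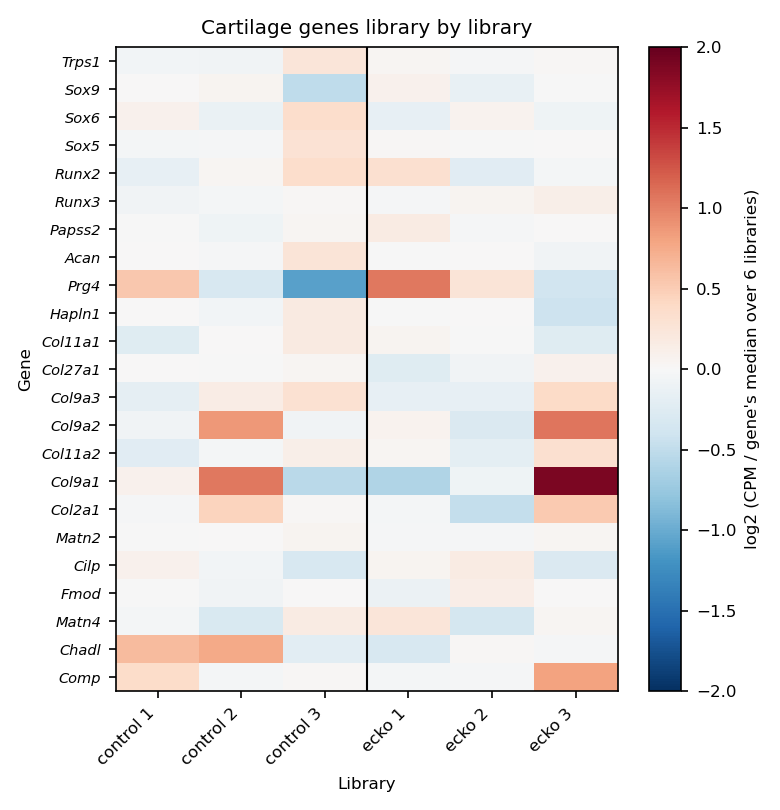
The 23 tested cartilage genes (rows) in the 6 libraries (columns), as log2 of the CPM over the gene's median across the libraries; red is above and blue below the median, and the line parts controls from ecko. Col9a1 and Col9a2 are reddest in control 2 and ecko 3, Prg4 is bluest in control 3, and most other cells are near white.

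Other genes of cartilage and the outer ear were read in the same fit. Of 27 further tested chondrocyte genes 0 passed, with a median log2 fold change of -0.002. The marker lists of hypertrophic cartilage and bone (7 tested of 14, median 0.05) and of the elastic fibre (14 tested, median -0.03) also had 0. Col10a1, the collagen of hypertrophic cartilage, had 0, 0 and 2 counts in control and 1, 1 and 0 in ecko libraries, and Bglap, osteocalcin of bone, had 0, 0 and 0 against 2, 1 and 0. Eln was 1101 ± 103 CPM in controls and 1018 ± 50.8 CPM in ecko (SD, n = 3 and 3), a log2 fold change of -0.11 ± 0.08 (edgeR adjusted p = 0.681).

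Of 23 tested genes of chondroitin sulfate synthesis and sulfate supply 0 passed (median -0.01). Chsy1, which builds the chondroitin chain, had the smallest p of these, with 980, 934 and 958 counts in control and 696, 865 and 805 in ecko libraries. All ecko libraries lay below the controls, and the log2 fold change was -0.27 ± 0.09 (edgeR adjusted p = 0.493). Of the 23 genes, 0 lay higher and 2 lower in ecko without overlap, beside 15.7% of all tested genes in either direction. Of 15 matrix proteases and inhibitors 0 passed (median -0.02). Adamts9, a proteoglycan-cleaving protease, had 1669, 1696 and 1605 counts in control and 1311, 1439 and 1444 in ecko libraries, again without overlap. Its log2 fold change was -0.24 ± 0.07 (edgeR adjusted p = 0.418). Of the 15 genes, 1 lay higher and 1 lower in ecko without overlap. Mmp9 had the highest log2 fold change of these, 0.92 ± 0.42 (edgeR adjusted p = 0.573), with overlapping groups.

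Of 35 tested BMP, GDF and TGF-beta genes 0 passed (median -0.04). Tgfb3, a growth factor of early cartilage formation, was 67.6 ± 5.48 CPM in controls and 75.3 ± 3.04 CPM in ecko without overlap. Its log2 fold change was 0.16 ± 0.08 (edgeR adjusted p = 0.576). Of the 35 genes, 3 lay higher and 0 lower in ecko without overlap, beside 15.7% of all tested genes in either direction. Of 18 tested outer ear patterning genes 0 passed (median -0.001). Hoxa2, the homeobox factor that specifies the outer ear, had 80, 77 and 73 counts in control and 96, 86 and 103 in ecko libraries. The groups did not overlap, and the log2 fold change was 0.32 ± 0.16 (edgeR adjusted p = 0.578). Of the 18 genes, 2 lay higher and 0 lower in ecko without overlap.

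Lists for the other cells that a piece of ear could hold gave 0 called genes each in edgeR: perichondrium and tendon (14 tested, median log2 fold change 0.04), skeletal muscle (26, 0.05), adipocyte (13, -0.18), epidermis (11, -0.09), dermal fibroblast (12, 0.0003), and pan-endothelial (12, -0.17). Luminal epithelium (18, 0.12) and hair follicle (18, -0.06), added after seeing the data, likewise had 0. Over the 13 lists that were not added, 12 of 223 tested genes had an unadjusted p under 0.05, beside 9.01% of all genes. The adipocyte list held 4 of them and the pan-endothelial list another 4. Of the 12 pan-endothelial genes, 11 had a lower mean in ecko, as had 11 of 13 adipocyte and 10 of 11 epidermis genes. Skeletal muscle leaned the other way, with 21 of 26 higher. Its summed CPM was lowest in control 3 (7794) and highest in control 1 (13872), with 10721 to 13252 in the ecko libraries, so this lean leaned on control 3. All ecko libraries lay below all controls for 5 pan-endothelial, 2 adipocyte and 1 epidermis genes, beside 15.7% of all genes without overlap in either direction. DESeq2 called 1 of the 223 genes, the lipid droplet gene Plin1.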

How the data were processed

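Counts were deposited by the authors as 1 table of expected counts per gene for the 6 libraries. Per the submitters' processing notes, HISAT2 2.2.1, Bowtie2 2.4.5, RSEM 1.3.1 and GRCm38.p6 were used. Their roles, the annotation and strandedness are not given in the sources used here. Of the values, 10.12% to 10.36% per library were not whole, and all were rounded for tests. Reads of overlapping genes may be split by estimation.

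The cartilage genes and all lists were chosen with earlier results of these data known. Control and ecko were compared with edgeR 4.0.16 (R 4.3.3; TMM, filterByExpr at min.count 10, robust quasi-likelihood test, Benjamini-Hochberg adjustment over 14920 genes, threshold 0.05), a procedure tested on simulated data. Genes named with full values were the defining genes, the SOX trio, the 4 smallest p in each direction, the 4 largest ratios of highest to lowest library, the most abundant gene per length of each role, and untested genes; from other lists, the 2 smallest p in each direction and the most abundant were eligible, and further names (Csn3, Krt18, Krt8, Krt19, Foxa1, Shh, Col10a1, Bglap) were chosen after their values were seen. Levels per length used exon lengths of GENCODE M21 (GRCm38), and coordinates are from RefSeq. DESeq2 1.42.0, other scalings and filters, a replicate block, a Y-linked covariate and leaving out libraries were alternatives. Counting precision is given by exact Poisson 95% intervals. The SE of a log2 fold change was derived as its absolute value divided by the square root of the edgeR F statistic.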

Additional observations from a re-analysis of the deposited data

How the results depend on the processing

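None of the 23 tested cartilage genes passed under any of the 13 alternatives, where the lowest adjusted p of the 14 genes named with full values and tested was 0.366. Over all genes, edgeR called 0 higher and 1 lower. DESeq2 called 87 higher and 26 lower, and the fit with the replicate number as a block called 88 higher and 10 lower. The replicate numbers did not pair the libraries (correlations of same-numbered libraries 0.162, -0.237 and -0.073). Chosen after seeing the data, a Y-linked covariate gave 1 higher, and leaving out control 2 and ecko 3 gave 2 higher and 2 lower. Leaving out single libraries gave 0 to 2 higher, the 2 without ecko 3. The causes were not tested.

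The median log2 fold change of the cartilage genes (-0.0215) was 0.0464 with no filter on low counts, where genes of a few counts enter, -0.0887 without control 2 and ecko 3, and -0.0812 (without control 1) to 0.0569 (without control 3) when single libraries were left out. Without control 2 and ecko 3, Col9a1 (-0.121), Col9a2 (-0.028) and Col11a1 (0.048) changed sign. With single libraries left out, the log2 fold change ran from -0.038 to 0.212 for Sox9, -0.397 to 0.103 for Col2a1, -0.16 to 0.001 for Acan, -0.135 to 0.045 for Sox5, -0.67 to 1 for Col9a1, -0.416 to 0.464 for Col9a2, -0.152 to 0.066 for Col11a1 and -0.026 to 0.198 for Cilp.

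By the summed level, the log2 level of the cartilage genes against the median library was highest in control 3 (0.053) and lowest in ecko 3 (-0.018). By the geometric mean these 2 libraries exchanged ends. That log2 level was then 0.043 in control 2, -0.086 in control 3, -0.014 in ecko 1, -0.06 in ecko 2 and 0.14 in ecko 3. With the 6 chondrocyte markers without Sox9, a choice made after seeing the data, it was 0.032, 0.156, -0.059, -0.048 and 0.12 in the same libraries. At 11 to 21 counts of Col2a1 and fewer for the untested genes, moderate differences were not detectable at this depth.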
